A study of Mus musculus with 6 samples.

Results

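The mitochondrial ribosomal protein genes were taken as every row of the deposited gene table whose symbol begins with Mrpl or Mrps followed by a digit. The rule found 78 of the 12534 genes in the table, 49 with an Mrpl symbol (large subunit) and 29 with an Mrps symbol (small subunit). The rule used no measured value, and all 78 members passed the filter on low counts that left 12106 genes for testing. RNA came from 4T1 cells, a BALB/c mouse mammary carcinoma line, grown in RPMI medium, in 6 libraries. There were 3 libraries of 4T1 wildtype (WT) cells and 3 of GPD2 KO cells (genotype Gpd2 -/-), in which Cas9 and a guide RNA had been directed at Gpd2, the mitochondrial glycerol 3-phosphate dehydrogenase that feeds electrons from glycerol 3-phosphate into the respiratory chain. GEO's treatment entry is the same for both groups and mentions the editing vector, while the methods report transfection for making KO cells, so it is unclear if WT cells received any vector. KO lines were grown from single cells, and the study ties its pathway analysis to 1 of them, the KO (1) line, so the loss of GPD2 and other differences of a clone cannot be told apart. The labels do not say how the libraries of a group were cultured, and the study speaks of independent biological samples only in general. The p-values therefore set the difference between the groups against the spread of these libraries, whose independence is not known.

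Mitochondria keep a small genome of their own, and the few proteins it encodes, all subunits of the respiratory chain and ATP synthase, are made on a dedicated ribosome. Its ribosomal RNAs are encoded in mitochondrial DNA, but every one of its proteins is encoded in the nucleus, made in the cytosol and imported. The small subunit binds and decodes the messenger RNA, and the large subunit joins the amino acids and releases the chain at the inner membrane. Some of these proteins descend from bacterial ribosomal proteins and the rest are found only in mitochondria.

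The libraries held 51186527 to 59846170 counts. Gpd2 itself was present at 134.7 to 135.7 CPM (read counts scaled to library size with edgeR's TMM factors) in WT and at 25.6 to 26.2 CPM in GPD2 KO, lower in every KO library but not absent. Of 8 epithelial markers listed, 3 were in the table, and their summed level was 1267 to 1331 CPM in WT and 733 to 771 CPM in GPD2 KO; Krt8, Krt18 and Krt7 were each lower, and the others are not analysed here. Of the 12 macrophage and myeloid markers 6 were in the table, summing to 38.5 to 39.6 CPM in WT and 32.4 to 34.5 CPM in GPD2 KO, with 4 lower, 1 higher and 1 not past the test, and of 9 lymphocyte markers 2 were, summing to 1.08 to 1.29 and 1.69 to 2.11 CPM. The 3 fibroblast markers in the table, of 9, summed to 115 to 116 CPM in WT and 56.6 to 64.0 CPM in GPD2 KO, with 2 lower and 1 higher, and the 1 endothelial marker, of 6, lay at 20.5 to 21.3 and 3.11 to 3.92 CPM. The part of these differences in the results was not tested. In bulk RNA, fewer cells of a kind and less RNA per cell cannot be told apart.

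Mitoribosomal protein genes moved in both directions and by small amounts. By edgeR's quasi-likelihood test with Benjamini-Hochberg adjustment over all tested genes at 0.05, 33 of the 78 members were higher in GPD2 KO than in WT, 20 were lower and 25 did not pass. That is 67.9% of the members called, where 66.8% of all 12106 tested genes were called, so being called at all did not set them apart. The balance lay with the rises, at 42.3% of the members against 33.5% of all tested genes, while 25.6% of the members fell against 33.3% of all tested genes. The median log2 fold change of the members was 0.07, against -0.0008 over all tested genes. The range ran from -0.53 for Mrps16 to 0.65 for Mrpl46, and the interquartile range was 0.37, narrower than the 0.57 of all tested genes. A fold of 1.5 or more was reached by 2 members, Mrpl46 and Mrpl36, whereas 19.7% of all tested genes were called at that size. The study's thresholds, at least a 2-fold change with p under 0.05 before adjustment in edgeR's exact test, were passed by 0 members and by 8.64% of tested genes; at an unadjusted p under 0.05 alone the exact test called 48 members. The CPM values of the 3 WT and 3 GPD2 KO libraries did not overlap for 56 members, against 71.1% of all tested genes.

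**Figure D1:**
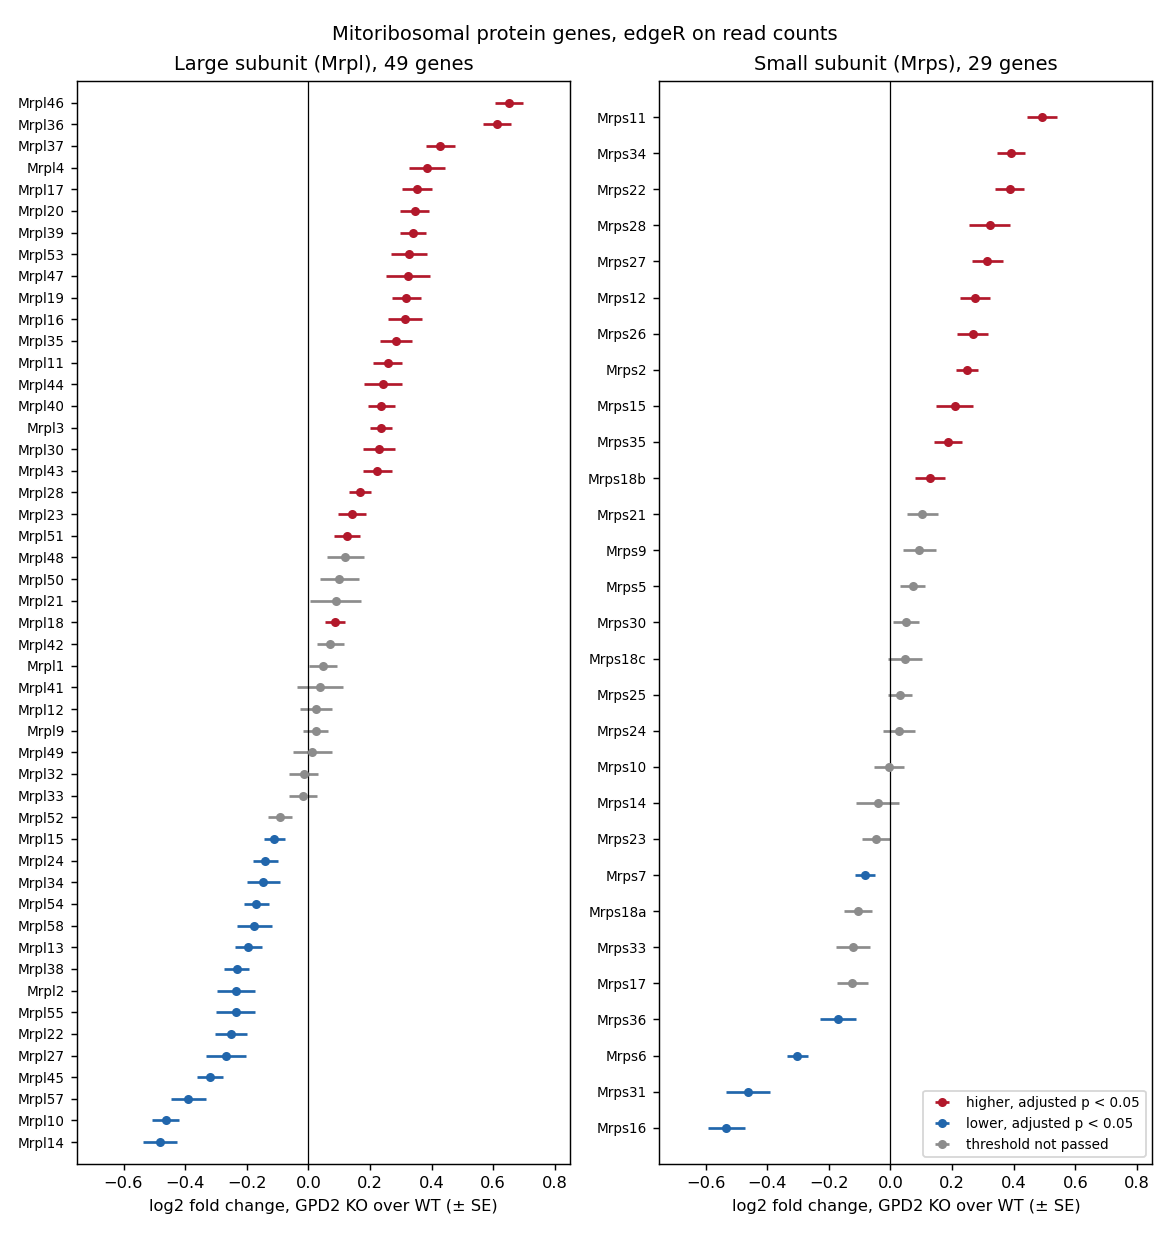
Log2 fold change of each of the 78 members, GPD2 KO over WT (points) with its standard error (bars), from edgeR on read counts, sorted within the large subunit (left, 49 genes) and the small subunit (right, 29 genes). In the large subunit 22 genes were higher and 15 lower, and in the small subunit 11 were higher and 5 lower. Over all tested genes, 33.5% were higher and 33.3% lower.

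Both subunits showed this mixture. Of the 49 large subunit genes 22 rose, 15 fell and 12 did not pass, with a median log2 fold change of 0.09. Of the 29 small subunit genes 11 rose, 5 fell and 13 did not pass, with a median of 0.05. Called were 75.5% of the large and 55.2% of the small subunit genes, against 66.8% of all tested genes. Rises were 44.9% and 37.9%, against 33.5%, and falls 30.6% and 17.2%, against 33.3%. The split by descent was similar in kind. Among the 30 large subunit proteins with a bacterial counterpart 14 rose and 10 fell, and among the 21 found only in mitochondria 8 rose and 5 fell. In the small subunit, 5 of 16 with a bacterial counterpart rose and 3 fell, and 6 of 10 found only in mitochondria rose and 1 fell. Called in these groups, in this order, were 80%, 61.9%, 50% and 70%, and differences between the groups were not tested. These groups follow the resolved structure of the particle, in which Mrps30 and Mrps18a sit in the large subunit despite their names. Mrps36, which the structures lack and which is known as a part of the 2-oxoglutarate dehydrogenase complex, belongs to none of them. The split divides the Mrps18 paralogs. Mrps18a and Mrps18b were listed as found only in mitochondria, although their paralog Mrps18c was listed with a bacterial counterpart.

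Summed over all members, the level in TPM (transcript abundance, a unit that corrects for transcript length and for depth) was 7719, 7772 and 7817 in WT and 7899, 8066 and 7958 in GPD2 KO. The KO libraries were all above the WT libraries, with means of 7974 ± 84.4 and 7770 ± 49.2 (SD, n = 3 each), a difference of 2.63%. Members made up 0.779% of all TPM in WT and 0.800% in GPD2 KO. The large subunit genes summed to 5190 to 5238 TPM in WT and 5275 to 5400 TPM in GPD2 KO, and the small subunit genes to 2529 to 2580 and 2624 to 2666 TPM. The ratio of the summed large to the summed small subunit level was 2.05, 2.02 and 2.03 in WT and 2.01, 2.03 and 2.02 in GPD2 KO, and the groups overlapped. Assigned by structure, Mrps30 and Mrps18a counted in the large subunit and Mrps36 was left out of both sums. The ratio was then 2.31 to 2.35 in WT and 2.28 to 2.30 in GPD2 KO, which did not overlap, with means 1.99% apart.

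**Figure D2:**
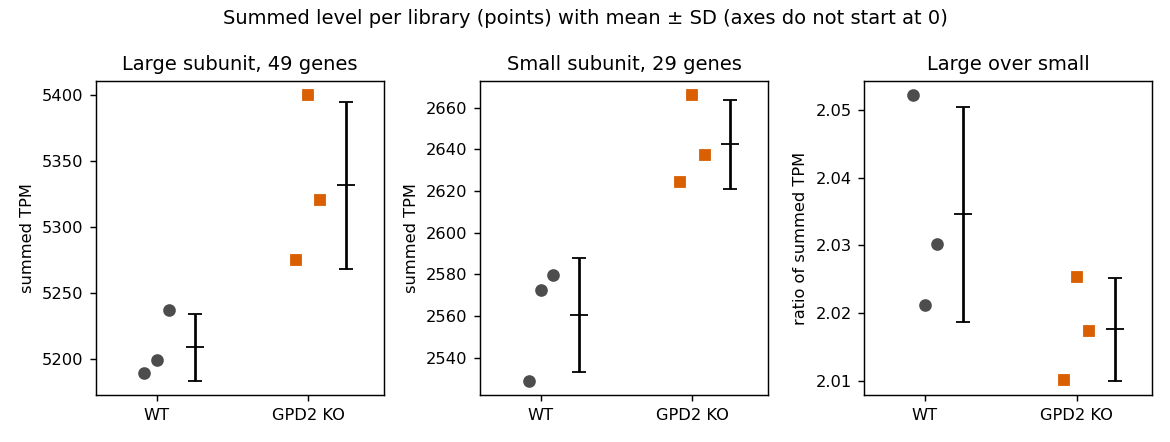
Summed TPM of the large subunit genes (left) and the small subunit genes (middle) and their ratio (right) in each library (points), with the mean and SD of 3 libraries (bars); the axes do not start at 0. Both sums were higher in all GPD2 KO libraries than in any WT library, and the ratios overlapped, at 2.02 to 2.05 in WT and 2.01 to 2.03 in GPD2 KO.

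The members were not equally abundant, although the particle holds most of them in single copies. Mean levels over the 6 libraries ran from 16.7 TPM for Mrpl41 to 541 TPM for Mrpl13, with a median of 80.1 TPM, and 72 of 78 lay above the median of all genes in the table, 23.8 TPM. Mrpl13 stood at 561, 574 and 599 TPM in WT and at 492, 519 and 503 TPM in GPD2 KO. By the mean of all libraries it was followed by Mrpl12, the stalk protein that recruits translation factors, at 359 to 373 TPM in WT and 360 to 398 TPM in GPD2 KO, and by Mrpl52 at 284 to 295 and 268 to 273 TPM. These 3 did not overlap with each other, but Mrpl33, at 266 to 285 TPM, overlapped with Mrpl52 and was the higher of the pair by the mean of GPD2 KO. At the low end Mrpl41 lay at 15.5 to 17.7 TPM in both groups, Mrpl19 at 16.9 to 17.7 TPM in WT and 20.9 to 22.8 TPM in GPD2 KO, and Mrps25 at 20.0 to 21.3 TPM over all libraries. Mrpl41 and Mrpl19 overlapped in WT, and Mrpl19 and Mrps25 overlapped in GPD2 KO. In WT alone, Mrpl35 and Mrpl17, with means of 19.2 and 19.3 TPM, lay below Mrps25, with 20.6 TPM. Mrps25 shares 69.8% of its annotated exonic bases with Nr2c2, and Mrpl19 36% with Gcfc2, both on the opposite strand. If counting did not take strand into account, which is not known, their levels may hold reads of these neighbours. Counts per member and library were 687 to 12462, so none of the calls rested on few reads.

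Large subunit genes with the largest rises came from different parts of the particle. The genes described for their rise or fall were chosen among those whose WT and GPD2 KO values do not overlap, so the lack of overlap in them is set by the choice. Mrpl46, a protein found only in mitochondria, was at 24.4, 22.7 and 23.5 CPM in WT and at 36.2, 36.5 and 38.2 CPM in GPD2 KO. This was a log2 fold change of 0.65 ± 0.045 (SE) and an edgeR adjusted p of 1.51e-06. Mrpl36, a small zinc-binding protein with a bacterial counterpart, was at 22.9, 23.5 and 22.9 CPM in WT and at 36.3, 36.1 and 33.6 CPM in GPD2 KO, a log2 fold change of 0.61 ± 0.045 (adjusted p = 2.32e-06). These were the only members past a fold of 1.5. Mrpl37, found only in mitochondria, rose from 57.8 to 62.8 CPM in WT to 76.6 to 83.1 CPM in GPD2 KO, a fold of 1.35 (adjusted p = 2.83e-05). Mrpl4, which lines the tunnel through which the new chain leaves, was at 53.2 to 61.1 CPM in WT and 72.1 to 79.3 CPM in GPD2 KO, a fold of 1.31 (adjusted p = 0.000271). Mrpl17 and Mrpl20, both with bacterial counterparts, were 1.28-fold and 1.27-fold higher, and in Escherichia coli the counterpart of Mrpl20 is among the first proteins to bind the ribosomal RNA.

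Small subunit rises were led by Mrps11, a protein of the platform with a bacterial counterpart. It was at 22.5, 21.1 and 22.5 CPM in WT and 30.6, 32.4 and 29.9 CPM in GPD2 KO, a log2 fold change of 0.49 ± 0.050 (edgeR adjusted p = 1.83e-05). Mrps34 and Mrps22, both found only in mitochondria and both mutated in human mitochondrial disease, were each 1.31-fold higher. Mrps34 was at 23.6 to 24.8 CPM in WT and 30.9 to 33.3 CPM in GPD2 KO (adjusted p = 4.7e-05), and Mrps22 at 22.8 to 24.5 and 30.1 to 31.9 CPM (adjusted p = 5.56e-05). Mrps28 was at 29.05, 27.6 and 33.5 CPM in WT and 37.3, 37.2 and 38.1 CPM in GPD2 KO, a fold of 1.25 (adjusted p = 0.0019), and WT replicate 3 stood nearer to the KO libraries than the others did. Mrps34 shares 63.4% of its annotated exonic bases with Mapk8ip3 on the opposite strand and 37.0% with Nme3 on the same strand. The sources used here do not say if counting took strand into account, and its value may hold reads of these neighbours.

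The members that fell included proteins of the stalk, the exit tunnel and the reaction centre. Mrpl14, which sits at the face that meets the small subunit, was at 21.4, 22.0 and 21.2 CPM in WT and 14.7, 15.7 and 15.7 CPM in GPD2 KO. This was a log2 fold change of -0.48 ± 0.055 (edgeR adjusted p = 3.85e-05). Mrpl10, the stalk protein that anchors Mrpl12 to the particle, was at 81.7, 76.2 and 79.5 CPM in WT and 56.4, 60.0 and 55.9 CPM in GPD2 KO, a log2 fold change of -0.46 ± 0.043 (adjusted p = 1.05e-05). Mrpl57 was at 28.7 to 32.2 CPM in WT and 22.2 to 24.4 CPM in GPD2 KO (log2 fold change -0.39, adjusted p = 0.000209). Mrpl45, which in mammals ties the particle to the inner membrane, was at 67.6 to 69.4 CPM in WT and 52.3 to 56.3 CPM in GPD2 KO (log2 fold change -0.32, adjusted p = 9.32e-05). Mrpl27, whose bacterial counterpart reaches into the reaction centre, and Mrpl22, which lines the exit tunnel, fell by 0.27 and 0.25 on the log2 scale (adjusted p = 0.00453 and 0.00188).

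In the small subunit Mrps16, a protein with a bacterial counterpart, fell furthest of all members, from 28.9, 26.3 and 29.99 CPM in WT to 19.5, 20.3 and 18.9 CPM in GPD2 KO (log2 fold change -0.53 ± 0.060, edgeR adjusted p = 3.71e-05). Mrps31, found only in mitochondria, was at 28.1, 25.9 and 31.2 CPM in WT and 21.8, 19.6 and 20.4 CPM in GPD2 KO (log2 fold change -0.46, adjusted p = 0.000325). Mrps6, with a bacterial counterpart, was at 80.0 to 81.1 CPM in WT and 64.3 to 67.1 CPM in GPD2 KO (log2 fold change -0.30 ± 0.034, adjusted p = 3.35e-05). Mrps36, counted here by its symbol although the structures lack it, was at 30.03, 27.5 and 32.3 CPM in WT. In GPD2 KO, Mrps36 was at 26.2, 27.3 and 26.3 CPM (log2 fold change -0.17, edgeR adjusted p = 0.0288). Its call was lost without WT replicate 1, WT replicate 3, GPD2 KO replicate 1 or GPD2 KO replicate 3 (adjusted p = 0.0665 to 0.101), and without WT replicate 3 the value was -0.11.

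**Figure D3:**
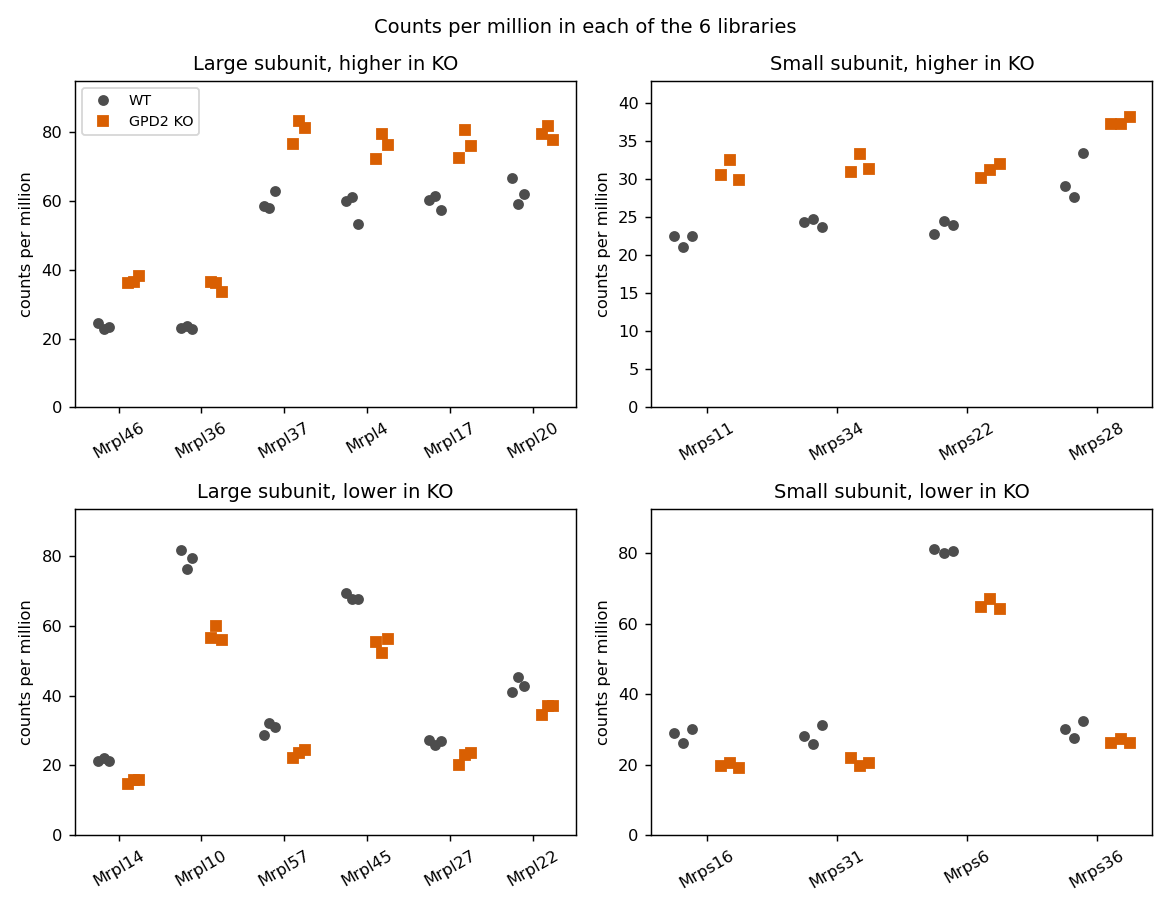
CPM of the 20 members with the largest changes in each direction and subunit among called members whose groups do not overlap, 1 point per library (circles WT, squares GPD2 KO). The gap between the groups, which the choice of genes requires, is smallest in Mrps36 (27.5 CPM in WT against 27.3 CPM in GPD2 KO).

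In the stalk and its base, Mrpl10 fell, Mrpl11 rose from 33.6 to 35.8 CPM in WT to 40.5 to 43.6 CPM in GPD2 KO (log2 fold change 0.26 ± 0.047, edgeR adjusted p = 0.000884), and Mrpl12 had a log2 fold change of 0.02 ± 0.050 (adjusted p = 0.682). Mrpl13, the most abundant member, fell by 0.19 on the log2 scale (adjusted p = 0.00293). The Mrps18 paralogs, which occupy different sites in the particle, had log2 fold changes of -0.11 for Mrps18a (adjusted p = 0.0609), 0.13 for Mrps18b (adjusted p = 0.0382) and 0.05 for Mrps18c (adjusted p = 0.481). The call of Mrps18b was lost on leaving out WT replicate 1 (adjusted p = 0.159) or any of 3 other libraries, and 30.5% of its exonic bases are shared with an antisense gene. Mrps30 was at 43.0 to 45.4 CPM in WT and 45.0 to 45.9 CPM in GPD2 KO, which overlapped (adjusted p = 0.3). Mrpl58, a peptidyl-tRNA hydrolase that rescues stalled mitoribosomes, fell by 0.18 on the log2 scale in counts (adjusted p = 0.0195) but by 0.02 in TPM, and was the only member in which the 2 units differed by more than 0.1. Nearest to 0 were Mrps10, Mrpl49 and Mrpl32, with log2 fold changes of -0.005, 0.01 and -0.01 and adjusted p values of 0.934, 0.87 and 0.797.

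The direction of a member went with where its gene lies. RefSeq positions on GRCm38.p6, which is the assembly behind the mm10 build used by the authors, were taken, and members lie on 17 chromosomes. On chromosome 11, where the median log2 fold change of all 1016 tested genes was -0.36, 8 of 11 members fell and 0 rose. On chromosomes 14 and 8, with medians of -0.39 and -0.30, 2 of 3 and 2 of 2 members fell and 0 rose. On chromosome 7, with a median of 0.26, 5 of 6 members rose and 0 fell, and on chromosome 9, with a median of 0.20, 3 of 3 rose. On chromosome 16, with a median of 0.23, 2 of 3 rose and 1 fell. Chromosomes 4, 5 and 6 went less with their medians: on chromosome 5, with a median of 0.11, 0 of 4 members rose or fell, while on chromosomes 6 and 4, with medians of 0.02 and 0.03, 5 of 7 and 3 of 4 rose. Over all chromosomes together, 33.5% and 33.3% of tested genes were called higher and lower. The shares of all genes called on each single chromosome were not counted, so the member counts have no such share beside them. Chromosome content was not measured, and its part in these differences was not tested.

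On chromosome 17 the genes around the members changed sign along its length, and the members changed with them. In order from the low coordinates, Mrpl18, Mrps34, Mrpl28 and Mrps18b were higher, with log2 fold changes of 0.09, 0.39, 0.17 and 0.13. The next 4 were Mrpl14 at -0.48, Mrps18a at -0.11, Mrpl2 at -0.24 and Mrps10 at -0.005, of which Mrpl14 and Mrpl2 passed the test as lower. The call of Mrpl18 was lost whichever library was left out (edgeR adjusted p up to 0.116). Around the first 4 members, the median of the 40 nearest tested genes that are no mitoribosomal protein genes was 0.10 to 0.22. Around the last 4 it was -0.39 to -0.35. These medians changed sign between Mrps18b, at 35910380 to 35916440, and Mrpl14, at 45685722 to 45698495. Stretches of the chromosome away from the members were not examined.

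Over all 78 members, the log2 fold change followed that of the 40 nearest tested genes with Pearson r = 0.65 and Spearman rho = 0.60 across genes, where neighbouring members share neighbours. For 12004 other tested genes the same correlations were 0.29 and 0.41. In neighbourhoods with a median of -0.15 or lower lay 21 members, of which 14 fell, 0 rose and 7 did not pass, with a median of -0.23. Of the 2582 other genes in such neighbourhoods 65.2% fell and 9.64% rose. In neighbourhoods at 0.15 or higher lay 15 members, of which 13 rose, 1 fell (Mrps6) and 1 did not pass, with a median of 0.25, whereas 55.1% of the 2769 other genes there rose and 14.8% fell. The 42 members in between held 20 that rose, 5 that fell and 17 that did not pass, and of the 6653 other genes in between 33.6% rose and 28.8% fell.

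Set against their neighbours, the members sat slightly high. The difference between a member and its neighbourhood median had a median of 0.09, with 53 of 78 members above their neighbours (67.9%, against 49.97% of other genes). It was 0.07 for the large and 0.14 for the small subunit. The spread of the members fell from an SD of 0.26 to 0.20 on subtracting the neighbourhood median. The members that departed most were Mrpl36, 0.65 above a neighbourhood median of -0.03, Mrpl20, 0.48 above -0.14, and Mrpl37, 0.40 above 0.03. Mrpl12 and Mrps10 had log2 fold changes near 0 amid neighbours at -0.35 and -0.35. On the other side Mrps6 fell amid neighbours at 0.17, and Mrpl17 rose by 0.35 amid neighbours at 0.70. Among the large fallers, Mrps16, Mrpl14, Mrpl57, Mrpl45 and Mrps31 lay in neighbourhoods at -0.38, -0.39, -0.38, -0.34 and -0.34. Mrpl10, with a log2 fold change of -0.46, lay further below its neighbours, which were at -0.26.

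**Figure D4:**
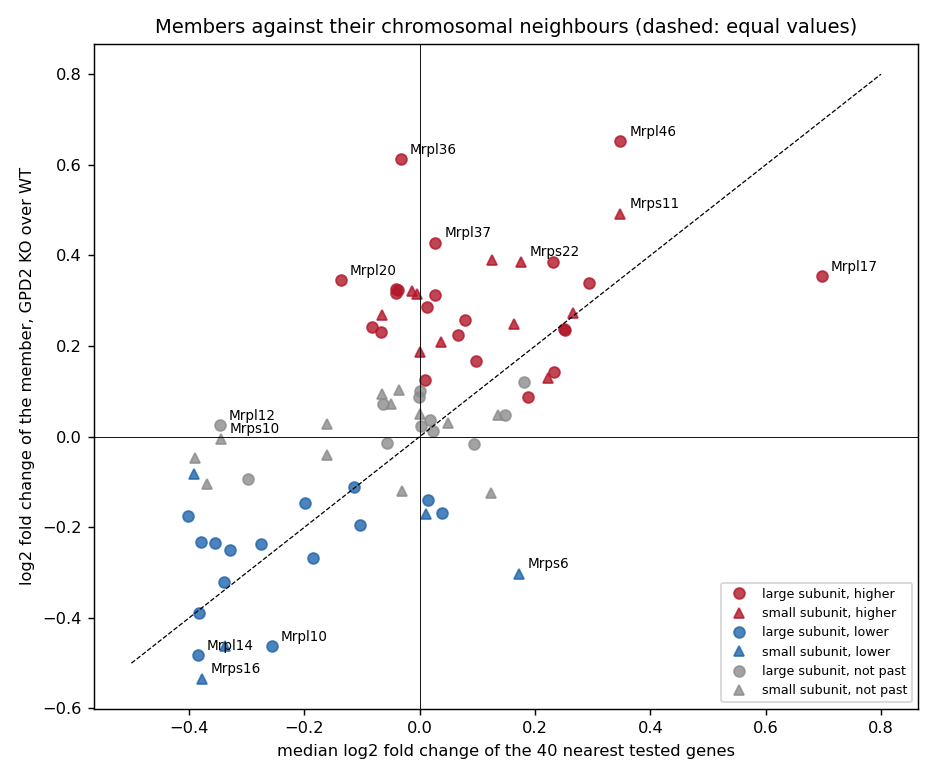
Log2 fold change of each member, GPD2 KO over WT (y axis), against the median log2 fold change of its 40 nearest tested genes that are no members (x axis); circles are large and triangles small subunit genes, red higher, blue lower and grey not past the adjusted p threshold, and the dashed line marks equal values. In the left of the plot, at neighbourhood medians of -0.15 or lower, 14 of 21 members fell and 0 rose; Mrpl36, Mrpl20 and Mrps6 lie farthest from the line together with Mrpl37.

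Many members share a start region with another gene. In the GENCODE annotation of the same assembly, 26 members start head to head with a protein-coding partner, within 1000 bases or with an overlap of up to 500 bases, and 25 of these partners were tested. Mrpl46 and Mrps11 are each other's partner, which leaves 24 distinct tested pairs. Both genes were called in 15 pairs (62.5%), in the same direction in 12 (80.0%) and in opposite directions in 3. Among the 751 other such pairs of tested genes both were called in 368, and 73.6% of those went in the same direction. Among the pairs with a member, Mrpl36 and Ndufs6, a subunit of complex I, both rose (log2 fold changes 0.61 and 0.32), and Mrpl57 and Ska3 both fell (-0.39 and -0.77). The opposite cases were Mrpl37 with Cyb5rl (0.43 and -0.46), Mrpl51 with Ncapd2 (0.12 and -0.28) and Mrpl54 with Apba3 (-0.17 and 0.76). In all, 33 members share exonic bases with another annotated gene, 28 of them on the opposite strand, and 6 share more than 30% of their exonic bases.

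One such pair consists of members of both subunits. Mrpl46 (chromosome 7, 78775341 to 78783089, minus strand) and Mrps11 (chromosome 7, 78783131 to 78792988, plus strand) start back to back, and were the top riser of the large and of the small subunit. These are RefSeq starts, which leave a gap. In GENCODE, transcripts of the 2 genes start further upstream, and their exons overlap by 173 bases on opposite strands, 12.2% of the exonic bases of Mrpl46 and 8.0% of those of Mrps11. The run shown lies between the RefSeq starts, from which the genes are read in opposite directions, and no GENCODE exon covers it. It holds none of the 4 motifs searched below.
Run between Mrpl46 and Mrps11, chr7:78783090-78783118, minus strand: gcccctcgccggcccgcgttgcctcatgg

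Promoters were read from the RefSeq table of GRCm38.p6, which held 69 of the 78 members. Each window ran from 250 bases before to 50 after a transcript start, the one listed nearest to the start of the gene. For some members this start lay inside the gene, as in Mrpl22 (58171664, with the gene from 58170043) and Mrpl36 (73331009, with the gene from 73328503). Each motif was found in windows of members that rose and of members that fell. ETS/GABP letters (CCGGAAG, on either strand) were in 24 of 69 member windows (34.8%), in 9.14% of all 27025 promoters and in 19.4% of the 9585 promoters of tested genes. NRF1 letters (GCATGCGC) were in 8 windows (11.6%, against 2.80% and 5.69%), YY1 letters (AAGATGGC) in 12 (17.4%, against 2.87% and 4.95%) and the E-box (CACGTG) in 5 (7.25%, against 7.24% and 10.4%). The end of the ETS/GABP letters and the start of the YY1 letters are the same (AAG), so matches to both can share bases, and 31 member windows held none of them. ETS/GABP letters were in 11 of 28 windows of members that rose, in 5 of 16 of those that fell and in 8 of 25 of the others. NRF1 letters were in 3, 2 and 3, YY1 letters in 6, 1 and 5 and the E-box in 3, 1 and 1 of the same windows, and differences between these shares were not tested. A match describes the letters and does not show a bound factor.

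Shown are the exon-free parts of 4 windows, 2 of members that rose and 2 of members that fell, with the matched letters in capitals (ETS/GABP in Mrps22, Mrpl17 and Mrpl22, NRF1 in Mrpl10 and Mrpl22). They were chosen after the values were seen, to show ETS/GABP letters in members of both directions. In these runs NRF1 letters occur only in the members that fell, while the window of Mrpl17 holds NRF1 letters outside the run shown. The run of Mrpl22 lies inside the gene, after its RefSeq start at 58170043. All are from RefSeq, GRCm38.p6, written 5′ to 3′ on the strand of the gene.
Mrps22, chr9:98601680-98601929, minus strand: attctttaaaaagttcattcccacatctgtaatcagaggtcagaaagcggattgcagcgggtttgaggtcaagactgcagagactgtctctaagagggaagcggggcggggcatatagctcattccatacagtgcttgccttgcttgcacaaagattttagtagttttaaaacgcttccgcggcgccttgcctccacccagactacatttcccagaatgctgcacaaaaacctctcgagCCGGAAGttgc
Mrpl17, chr7:105811100-105811337, minus strand: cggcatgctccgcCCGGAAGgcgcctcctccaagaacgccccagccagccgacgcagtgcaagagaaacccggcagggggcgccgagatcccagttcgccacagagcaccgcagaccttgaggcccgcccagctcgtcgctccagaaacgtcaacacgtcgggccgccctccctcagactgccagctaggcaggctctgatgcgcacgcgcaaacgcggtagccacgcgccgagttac
Mrpl10, chr11:97041408-97041559, plus strand: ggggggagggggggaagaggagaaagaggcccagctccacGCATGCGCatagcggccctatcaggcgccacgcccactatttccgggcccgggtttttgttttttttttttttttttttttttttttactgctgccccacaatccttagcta
Mrpl22, chr11:58171414-58171660, plus strand: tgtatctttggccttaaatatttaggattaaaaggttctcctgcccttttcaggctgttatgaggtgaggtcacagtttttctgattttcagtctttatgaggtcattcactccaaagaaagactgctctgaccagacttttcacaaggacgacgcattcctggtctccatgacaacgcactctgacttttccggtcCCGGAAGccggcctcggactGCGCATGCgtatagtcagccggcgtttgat

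Regulators known to act on nuclear genes of mitochondria were measured too. Of 11 tested genes in the list of regulators, 5 rose, 1 fell and 5 did not pass. That is 45.5% higher and 9.09% lower, against 33.5% and 33.3% of all tested genes. Log2 fold changes of the 11 ran from -0.20 to 0.67, with a median of 0.06. The 3 with the smallest adjusted p are named here. Esrra, a nuclear receptor that drives mitochondrial genes, was at 30.7 ± 0.81 CPM in WT and 44.6 ± 2.34 CPM in GPD2 KO (SD, n = 3 each), a log2 fold change of 0.54 (edgeR adjusted p = 9.44e-06). Ppargc1b, a coactivator, had a log2 fold change of 0.67 (adjusted p = 2.95e-05), and Yy1 one of 0.26 (adjusted p = 0.000171). The other ribosome proteins that carry no Mrp symbol were measured in 5 genes. Chchd1 fell by 0.24 on the log2 scale, Aurkaip1 fell by 0.13 and Ptcd3 rose by 0.15 (adjusted p = 0.000983, 0.0269 and 0.0123). Dap3, which binds GTP in the small subunit, and Gadd45gip1 had log2 fold changes of -0.05 and 0.04 and did not pass.

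Genes that build and serve the mitoribosome showed the same kind of mixture. Of 28 tested assembly genes 12 rose, 5 fell and 11 did not pass, with a median log2 fold change of 0.06. Ndufab1, the mitochondrial acyl carrier protein, and Noa1, a GTPase, had log2 fold changes of 0.47 and 0.33 (edgeR adjusted p = 8.78e-06 and 3.36e-05), and Mrm1, which methylates the large ribosomal RNA, one of -0.74 (adjusted p = 0.000115). Of 17 translation factors and cofactors 6 rose and 4 fell. The elongation factor Gfm1 and the mRNA-binding Lrpprc rose by 0.48 and 0.43 on the log2 scale, and Oxa1l, which inserts new chains into the inner membrane, fell by 0.34 (adjusted p = 4.59e-06, 3.6e-05 and 1.42e-05). Of 17 mitochondrial tRNA synthetase genes 8 rose and 4 fell, with Aars2 at 0.73, Yars2 at 0.71 and Cars2 at -0.59 in log2 fold change (adjusted p = 1.38e-05, 1.67e-06 and 1.32e-05).

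The genes that keep and transcribe mitochondrial DNA had 4 rises and 5 falls among 15 tested. The polymerase Polg rose by 0.41 and Hsd17b10, a subunit of the enzyme that frees tRNAs, by 0.36 on the log2 scale, and the elongation factor Tefm fell by 0.77 (edgeR adjusted p = 2.78e-05, 1.25e-05 and 7.06e-05). Of 20 import and protease genes 9 rose and 4 fell, with Tomm40, Timm50 and Tomm70a, parts of the import machinery, at 0.61, 0.49 and 0.44 in log2 fold change (adjusted p = 2.11e-06, 1.21e-05 and 2.62e-06). The nuclear genes of oxidative phosphorylation had 33 rises and 15 falls among 78, with a median of 0.09, close to that of the mitoribosome, and the cytosolic ribosomal proteins 26 and 30 among 84, with a median of -0.03. Genes encoded in mitochondrial DNA, the products of which the mitoribosome makes, are not analysed here.

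**Figure D5:**
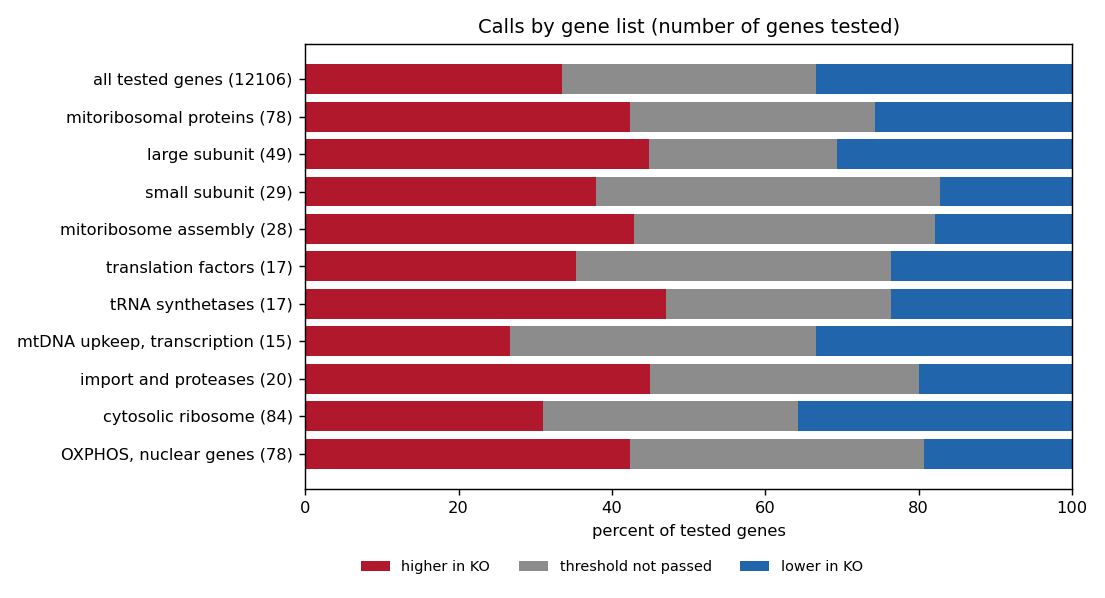
Percent of tested genes called higher (red), called lower (blue) or not past the threshold (grey) in GPD2 KO against WT by edgeR, for all tested genes and 10 lists, with the number of genes tested in brackets. Of all tested genes 33.5% were higher and 33.3% lower; among the 78 mitoribosomal protein genes 42.3% were higher and 25.6% lower, and among the cytosolic ribosomal proteins falls outnumbered rises, 30 to 26.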

How the data were processed

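Libraries were made with a stranded mRNA kit. Per the methods and the submitters' processing notes, Trimmomatic 0.38 was used for trimming, HISAT2 2.1.0 for alignment to mm10 and StringTie 1.3.4d for quantification. Values used here are the raw read count of each gene, as deposited, and the TPM that the authors gave for each library. The table also holds FPKM values, log2 values of scaled CPM, a signed fold (a score) and p-values from the authors' own comparison, all deposited by the authors and not used here. The counts were fitted by edgeR 4.0.16 in R 4.3.3 (TMM factors 0.992 to 1.01, filterByExpr at a minimum count of 10) and tested by quasi-likelihood, with Benjamini-Hochberg adjusted p over 12106 genes. Standard errors came from the quasi-likelihood F. Levels between genes were compared in TPM. DESeq2 1.42.0 and limma 3.58.1 (on log2 of TPM plus 1 or 0.1), other scaling, no filter, the replicate number as a block, the study's thresholds and leaving out each library were alternatives.

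The members and the gene lists were chosen with earlier results of these data known. Named were, in each direction, the 6 large and 4 small subunit members with the largest change among those called whose CPM values did not overlap, the 3 highest, 3 lowest and 3 least changed members, the Mrps18 paralogs, the stalk, Mrpl58, Mrps30, mitoribosomal proteins with other symbols, and up to 3 genes of each other list by adjusted p. Members named for position or shared starts were chosen after their values were seen. Replicate libraries differed by more than sampling noise, with chi-square per degree of freedom of 16.9 to 25.6, so none was counted as a library deposited again.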

Additional observations from a re-analysis of the deposited data

How the results depend on the processing

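The counts of members called kept within 1.5 times under other scaling factors, library size alone, DESeq2, limma on TPM and no filter, at 52 to 56 of 78, and no called member changed sign in any of these or in the fits below. At the thresholds of the study, which add a fold of 2, 1046 of all tested genes and 0 members (0 large, 0 small subunit) passed. Leaving out 1 library gave 45 to 53 called members, 32 to 36 in the large and 13 to 17 in the small subunit, 7433 to 7783 of all tested genes, and a member median of 0.049 to 0.081 on the log2 scale. In these fits 42 of the 53 calls held each time, and Mrpl15, Mrpl18, Mrpl23, Mrpl24, Mrpl34, Mrpl51, Mrpl58, Mrps7, Mrps15, Mrps18b and Mrps36 each lost theirs at least once; Mrpl18 lost it whichever library was left out (adjusted p up to 0.116, edgeR). Mrpl15 and Mrpl58 were not called by limma on TPM, while Mrpl52 and Mrps18a were called lower there, with library size alone, without the filter and without GPD2 KO replicate 2.

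Chosen after the data were seen, a count without the members on chromosomes 7, 8, 9, 11, 14, 16 and 17 left 42 members. Of these, 24 were called (17 large and 7 small subunit), 57.1% against 67.9% of all members. With 19 higher and 5 lower, 79.2% of these calls were higher against 62.3%. The chromosomes left out held most of the members that fell, so this share was largely set by the choice. The share of all tested genes called on the other chromosomes was not counted, and the cause was not tested. The median of the 42 members was 0.10 on the log2 scale, and relative to neighbouring genes the median of all members was 0.095. The summed level differed by 3.89% in CPM in place of TPM, and by 2.05% to 3.12% on leaving out 1 library. The ratio of large to small differed by -1.99% with subunits assigned by structure and by -1.16% to -0.40% on leaving out 1 library. ETS/GABP letters on the first strand only were in 21.7% of member windows, against 4.99% of all promoters and 10.9% of those of tested genes.

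WT and GPD2 KO libraries share replicate numbers. Same-numbered libraries deviated together with correlations of 0.05, 0.06 and -0.02, and the other combinations gave -0.14 to 0.09. These values, from 3 libraries per group, cannot show if same-numbered libraries shared a culture or a batch. With the number as a block, 48 members (35 large, 13 small subunit) and 7974 of all tested genes were called, with a member median of 0.07 and Gpd2 at -2.39; Mrpl18, Mrpl51, Mrps7, Mrps18b and Mrps36 lost their calls.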
